A study of Mus musculus with 15 samples.

Results

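The fatty acid desaturases and elongases are the enzymes that put double bonds into fatty acyl chains and that lengthen them. They were measured by RNA sequencing in cultured mouse white adipocytes cultured for part of their life at 31°C, cooler than the interior of a mouse. The 10 genes are Scd1, Scd2, Fads1, Fads2, Fads3, Elovl1, Elovl3, Elovl5, Elovl6 and Elovl7, chosen by name from the 18804 genes of the count table. They comprise 2 stearoyl-CoA desaturases, 3 genes of the front-end desaturase family and 5 elongases, and 9 of the 10 had enough counts to be tested, the exception being Elovl3. The adipocytes were differentiated from mesenchymal stem cells of C57BL/6J mice. Per the study's methods these stem cells came from the ear. All 3 groups received the same induction with methylisobutylxanthine, dexamethasone, insulin and a thiazolidinedione, named troglitazone in the labels, and all were harvested 16 days after it began. Day 0 cells stayed at 37°C throughout, day 1 cells spent the last day at 31°C, and day 12 cells were moved to 31°C on day 4, while still differentiating. There were 5 libraries per group, and no source used here tells whether they are biological replicates from different mice or parallel dishes, so the p-values measure the spread between libraries only. Because day 12 cells also matured at 31°C, length of cooling and stage of differentiation cannot be told apart in that group.

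Stearoyl-CoA desaturases place the initial double bond in saturated chains and so make palmitoleate and oleate, the main monounsaturated fatty acids of stored fat. Front-end desaturases add further double bonds to the essential fatty acids linoleate and α-linolenate, in alternation with elongases, and so make arachidonate and its omega-3 counterparts. Elongases carry out the condensing step of chain lengthening in the endoplasmic reticulum, each with its own preferred substrates. In fat cells the stearoyl-CoA desaturases and Elovl6 act downstream of de novo lipogenesis, and several of these genes are known targets of the sterol regulatory element-binding proteins and of the liver X receptors.

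Library totals lay between 64648178 and 133270973 counts. Levels are given as CPM, counts scaled to a common library size by the trimmed mean of M values (TMM), and where a gene had no count its level could still be as high as 0.0225 to 0.0464 CPM, depending on the library and for counting error alone. Adipocyte markers were abundant in every library, with a summed level over 10 markers of 6846 to 7509 CPM at day 0, 8174 to 8784 at day 1 and 7064 to 7737 at day 12, where 2 of the 10 were called higher and 4 lower against day 0. The 3 brown adipocyte markers summed to 0.278 CPM at most and none had enough counts to be tested. Other marker lists moved with the groups. Over 10 stromal progenitor markers the sum was 10568 to 11057 CPM at day 0 and 8585 to 9145 at day 1. At day 12 it was 6963 to 7316, and 3 of 8 tested markers were called lower against day 0. This sum was mostly Col3a1, from 6727 to 3900.5 CPM, and Col1a1, from 2649 to 1975 CPM, at days 0 and 12. Pdgfra, Pdgfrb and Thy1 went the other way at day 12, with log2 fold changes of 0.34, 0.49 and 0.078, none of them called. Over 6 proliferation markers the sum was 50.3 to 61.8, 60.5 to 71.3 and 156 to 188 CPM at days 0, 1 and 12. At day 12, 6 of 6 were called higher. The 5 mesothelial markers summed to at most 2.25 CPM at days 0 and 1 and to 23.4 to 38.3 at day 12, but this sum was carried by Msln, the only 1 of 3 tested markers called at day 12 against day 0, from 0.628 ± 0.253 to 29.3 ± 5.88 CPM. Of the rest, Lrrn4 and Krt19 were at -0.43 and 0.06, Upk3b was too low to test and Wt1 was at 3 counts or fewer in every library. Macrophage markers summed to at most 14 CPM, endothelial markers to 1.47, keratinocyte markers to 66.3, Schwann cell markers to 78.5 and chondrocyte markers to 325 CPM. The keratinocyte sum was mostly Trp63, at 51.4, 20.4 and 61.0 CPM at days 0, 1 and 12. The Schwann cell sum was mostly S100b, at 59.6, 75.2 and 65.0 CPM. Krt14, Krt5 and Sox10 were too low to test. Trp63 was called lower at day 1 (-1.33). Of the chondrocyte markers, Acan (-0.97) and Sox9 (-0.79) were called lower at day 12 against day 0, while Col2a1 was at 0.29. The part of these shifts in the results below was not tested, and in such bulk samples fewer cells of a type and less RNA per cell cannot be told apart.

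Of the 10 genes, 6 are on mouse chromosome 19 (GRCm38, GENCODE annotation), where they lie in 2 clusters. Scd2 (19:44293674-44306864, plus strand) and Scd1 (19:44394455-44407879, minus strand) are 87.6 kb apart, and Elovl3 (19:46131897-46135694, plus strand) is a further 1724.0 kb away. Fads3 (19:10041569-10060110, plus strand), Fads2 (19:10062765-10101746, minus strand) and Fads1 (19:10182888-10196877, plus strand) lie in a row, with 2.7 kb between Fads3 and Fads2 and 81.1 kb between Fads2 and Fads1. Elovl1 (4:118428093-118432953), Elovl5 (9:77917364-77984519), Elovl6 (3:129532355-129638495) and Elovl7 (13:108214404-108285683) are each on another chromosome and on the plus strand. Strandedness of the counting was not given in the sources used here, and 1.944% of the exon bases of Elovl1 also lie in Cdc20 and 1.116% of those of Scd2 in Mir5114. Of all 50-base windows of its exons, Scd1 shared 4.562% with other genes, mainly its paralogs Scd2, Scd3 and Scd4. Scd2 shared 3.974%, with 2.655% of its windows found in Scd1, and Elovl6 shared 3.983%. A small part of the reads of these genes may therefore be placed with a copy. What this does to the ratio of Scd1 to Scd2 was not tested.

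The bases before the transcription start were matched in RefSeq (GRCm38.p6) for 6 of the 10 genes. The 250 bases before the RefSeq start are shown for the 4 matched genes that moved furthest from day 0. For Fads2 that start differs from the GENCODE one, 10101746, and the window lies almost wholly within the gene as placed above. Capitals mark the letters CCAAT on either strand, the binding motif of nuclear factor Y. This factor works with sterol regulatory element-binding proteins at lipogenic promoters.
Fads2 (chr19:10101504-10101753, minus strand): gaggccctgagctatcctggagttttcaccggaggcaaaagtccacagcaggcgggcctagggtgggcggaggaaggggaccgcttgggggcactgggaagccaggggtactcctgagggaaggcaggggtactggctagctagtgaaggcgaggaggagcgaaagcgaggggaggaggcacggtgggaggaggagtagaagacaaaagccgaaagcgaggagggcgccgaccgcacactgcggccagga
Fads3 (chr19:10041298-10041547, plus strand): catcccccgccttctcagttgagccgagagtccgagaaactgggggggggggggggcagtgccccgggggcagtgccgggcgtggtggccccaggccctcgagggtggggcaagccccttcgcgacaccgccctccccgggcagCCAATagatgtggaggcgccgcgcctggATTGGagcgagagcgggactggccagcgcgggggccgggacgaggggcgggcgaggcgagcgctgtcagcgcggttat
Elovl5 (chr9:77917115-77917364, plus strand): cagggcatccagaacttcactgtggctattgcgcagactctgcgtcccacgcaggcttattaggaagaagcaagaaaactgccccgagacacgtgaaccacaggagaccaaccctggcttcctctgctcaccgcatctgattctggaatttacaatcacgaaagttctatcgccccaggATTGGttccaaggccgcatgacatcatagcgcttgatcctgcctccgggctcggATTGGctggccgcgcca
Elovl7 (chr13:108214154-108214403, plus strand): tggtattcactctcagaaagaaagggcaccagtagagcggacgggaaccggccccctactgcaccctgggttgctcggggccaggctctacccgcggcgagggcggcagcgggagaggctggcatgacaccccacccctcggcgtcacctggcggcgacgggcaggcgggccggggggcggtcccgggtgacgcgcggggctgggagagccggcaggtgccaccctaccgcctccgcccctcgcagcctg
Counted from the start, CCAAT stood at -106 to -102 and at -78 to -74 before Fads3, and at -71 to -67 and at -17 to -13 before Elovl5. It was absent from these windows of Fads2 and Elovl7, which for Fads2 says little about the bases before its GENCODE start. Fads3 and Elovl5, both with the motif, moved in opposite directions at day 1, as given below. Of 32851 mouse promoters of this length, 33.8% held CCAAT, and 3.67% held TCACNCCA, a sterol-regulatory-element-like motif that none of the windows of these 6 genes held. A match is a run of letters, not a measured binding site.

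Scd1, the principal stearoyl-CoA desaturase of adipose tissue, rose at both times and was the only one of the 9 tested genes called higher with TMM scaling. In the day 0 libraries its level was 2038, 1885, 2191, 2503 and 2423 CPM, in the day 1 libraries 4365, 5770, 5477, 5159 and 5156 CPM, and in the day 12 libraries 5664, 6162, 6658, 6435 and 6318 CPM. Every library at 31°C lay above every day 0 library, by a wide margin, while the ranges of days 1 and 12 overlapped. The mean rose from 2208 ± 258 CPM (SD, n = 5) to 5185 ± 525 CPM at day 1, a log2 fold change of 1.23 (SE 0.068, edgeR quasi-likelihood test with Benjamini-Hochberg adjustment, adjusted p = 6.06e-14) or 2.35-fold. At day 12 the mean was 6247 ± 373 CPM, a log2 fold change of 1.5 against day 0 (SE 0.068, adjusted p = 8.26e-16, edgeR) or 2.83-fold. The step from day 1 to day 12 was 0.27 (95% interval 0.13 to 0.41, adjusted p = 0.00109, edgeR), below the 1.5-fold limit, but 1.05 with qPCR reference genes (Hprt, Tbp, Gapdh and B2m) as the scale and 0.61 with Hprt and Tbp alone, both past that limit. Against day 0 the day 12 value was 2.34 and 1.76 on these scales. Of all counts, Scd1 alone took 0.210% ± 0.0240 in day 0 libraries, 0.501% ± 0.0509 in day 1 libraries and 0.680% ± 0.0392 in day 12 libraries (SD, n = 5). By mean CPM it was the 39th most abundant of all genes at day 0, with rank 18 at day 1 and rank 7 at day 12.

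Scd2, its close paralog, did not share the increase with TMM scaling. Its level was 399.5, 383, 430.4, 431 and 407 CPM at day 0, 357, 377, 393, 387 and 362 CPM at day 1, and 338, 358, 377, 377 and 349.6 CPM at day 12. The day 1 values overlapped those of day 0 at the edge, and all day 12 values lay below all day 0 values. The log2 fold change was -0.13 at day 1 (SE 0.037, adjusted p = 0.00322, edgeR). At day 12 it was -0.19 (SE 0.037, adjusted p = 6.38e-05, edgeR). It was 0.0037 with total counts as the scale, 0.071 with Hprt and Tbp alone, and 0.65 with the qPCR reference genes, past the 1.5-fold limit. The direction of the day 12 shift thus rests on the scaling. Within a library, which needs no scaling, the count of Scd1 relative to Scd2 was 5.10, 4.91, 5.09, 5.80 and 5.96 at day 0, 12.2, 15.3, 13.9, 13.3 and 14.2 at day 1, and 16.8, 17.2, 17.7, 17.1 and 18.1 at day 12. The 3 groups did not overlap. The ratio differed by 1.36 on the log2 scale between days 1 and 0, by 1.70 between days 12 and 0 and by 0.33 between days 12 and 1, each with an exact two-sided permutation p of 0.00794, the smallest that 5 against 5 libraries allow, and 0.0108 after adjustment over 15 ratio tests.

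**Figure D1:**
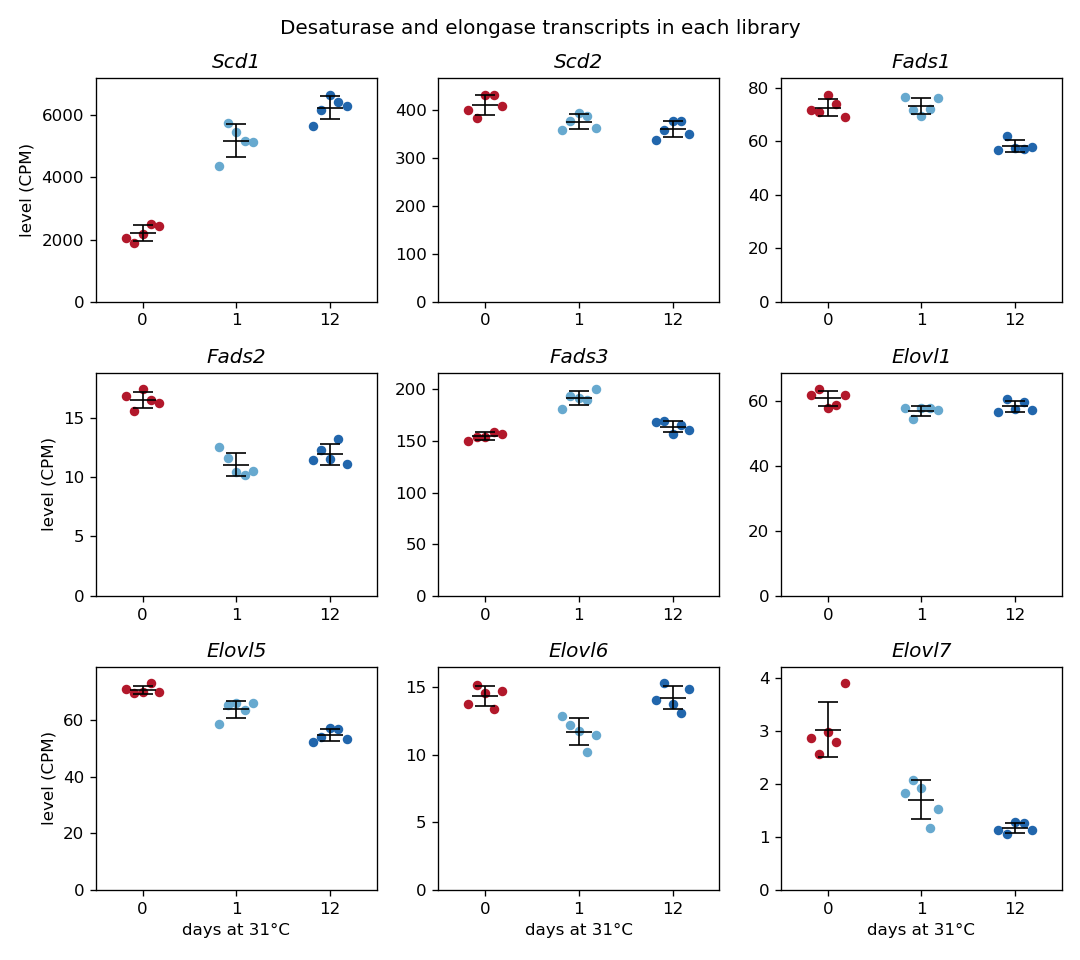
Level of 9 desaturase and elongase genes in each of the 15 libraries in CPM (y axis, from 0) against days at 31°C (x axis), with points for libraries and bars for the mean ± SD of 5. Scd1 stands at 1885 to 2503 CPM at day 0 and at 4365 CPM or more at 31°C, whereas Elovl7 goes the other way, from a mean of 3.02 to 1.71 and 1.17 CPM.

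Fads2, which catalyses the initial step of polyunsaturated fatty acid synthesis, was lower at 31°C. Its level was 16.8, 15.6, 17.4, 16.5 and 16.2 CPM at day 0, 12.5, 11.6, 10.4, 10.2 and 10.5 CPM at day 1, and 11.4, 12.3, 11.5, 13.2 and 11.1 CPM at day 12. The lowest day 0 library lay above the highest library of either later group, and days 1 and 12 overlapped. The log2 fold change was -0.58 at day 1 (SE 0.059, 95% interval -0.70 to -0.46, adjusted p = 3.78e-09, edgeR), a fold of 0.668 that stood at the edge of the 1.5-fold limit. Without day 0 replicate 2 or 5, or without day 1 replicate 1 or 2, it passed that limit, at -0.60, -0.59, -0.63 and -0.60. At day 12 it was -0.47 (SE 0.058, adjusted p = 8.19e-08, edgeR), with the reverse sign, 0.36, when the qPCR reference genes set the scale. Days 12 and 1 differed by 0.11 (95% interval -0.017 to 0.23, adjusted p = 0.118, edgeR), or by 0.9 on the qPCR scale.

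Fads1, the desaturase that acts after Fads2 on the way to arachidonate, had another time course. It stood at 71.7, 71.1, 77.4, 74.1 and 69.1 CPM at day 0, at 76.5, 71.8, 69.7, 72.2 and 76.4 CPM at day 1, and at 56.7, 62.1, 57.6, 57.0 and 57.9 CPM at day 12. Days 0 and 1 covered the same range and every day 12 library lay below both. The day 1 change was 0.012 (95% interval -0.06 to 0.085, adjusted p = 0.762, edgeR), with either sign depending on the setting. The day 12 change was -0.32 against day 0 (SE 0.035, adjusted p = 1.4e-08, edgeR) and -0.33 against day 1 (adjusted p = 1.27e-08, edgeR), though 0.52 and 0.46 with the qPCR reference genes as the scale. Within a library the ratio of Fads1 to Fads2 counts had geometric means of 4.41 at day 0, 6.66 at day 1 and 4.90 at day 12. It rose by 0.60 on the log2 scale from day 0 to day 1, with no overlap, and was 0.44 lower at day 12 than at day 1, again with no overlap (exact permutation p = 0.00794 for both, 0.0108 adjusted). From day 0 to day 12 the groups overlapped and the difference was 0.15 (exact permutation p = 0.0317, 0.0397 adjusted), a call that 6 of the 10 reduced sets of libraries lost.

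Fads3, whose product introduces a double bond into the long-chain base of ceramides, was higher at day 1. Its level was 149.7, 154, 154, 159 and 157 CPM at day 0, 181, 194, 192, 189.6 and 200.2 CPM at day 1, and 168, 169, 157, 165 and 161 CPM at day 12. The day 1 libraries stood above all others, and day 12 overlapped day 0 only at its low end. Against day 0 it was at a log2 fold change of 0.31 at day 1 (SE 0.029, adjusted p = 1.25e-09, edgeR) and 0.086 at day 12 (SE 0.029, adjusted p = 0.0101, edgeR), the latter 0.93 with the qPCR reference genes as the scale, past the 1.5-fold limit, and 0.35 with Hprt and Tbp alone. Between days 1 and 12 it was -0.22 (adjusted p = 3.78e-07, edgeR), or 0.57 and 0.12 on the scales of the qPCR reference genes and of Hprt and Tbp alone. With TMM all of these were below the 1.5-fold limit. With TMM the 3 neighbours on chromosome 19 had 3 different courses, with Fads3 highest at day 1, Fads2 highest at day 0 and Fads1 lowest at day 12, whereas on the qPCR scale Fads3, Fads2 and Fads1 were all higher at day 12 than at day 0, and Fads3 was highest at day 12 on that scale and with Hprt and Tbp alone.

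Elovl7, an elongase of saturated chains and the least abundant of the tested genes, was the only one called lower with TMM scaling, with Fads2 at the edge of the limit. Its level was 2.87, 2.56, 2.99, 2.80 and 3.90 CPM at day 0, 1.84, 2.08, 1.92, 1.17 and 1.53 CPM at day 1, and 1.13, 1.05, 1.28, 1.27 and 1.14 CPM at day 12. Both groups at 31°C lay below day 0 without overlap, and overlapped each other through the day 1 library at 1.17 CPM. The log2 fold change was -0.82 at day 1 (SE 0.14, adjusted p = 1.46e-05, edgeR) and -1.37 at day 12 (SE 0.15, adjusted p = 7.65e-09, edgeR), or to 0.566 and 0.387 of the day 0 level. With the qPCR reference genes as the scale the day 12 value was -0.53 and below the 1.5-fold limit. From day 1 to day 12 it was -0.55 (95% interval -0.86 to -0.23, adjusted p = 0.00283, edgeR), or 0.24 with the qPCR reference genes as the scale. The library numbers in the labels fall into an earlier series of 11 libraries and a later one of 4, namely day 0 replicate 5, day 1 replicates 4 and 5 and day 12 replicate 5. For days 0, 1 and 12 in turn, means were 2.81, 1.95 and 1.18 CPM in the earlier series and 3.90, 1.35 and 1.14 CPM in the later one. With the earlier series alone the day 1 change was -0.53 (adjusted p = 0.0021, edgeR), below the 1.5-fold limit, and the change from day 1 to day 12 was -0.72 and passed it.

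Elovl5, which lengthens the polyunsaturated chains that Fads2 makes, was lower at each step. It stood at 71.0, 69.4, 69.9, 73.0 and 70.1 CPM at day 0, at 58.8, 65.4, 65.9, 63.5 and 65.9 CPM at day 1, and at 52.1, 54.2, 57.2, 56.7 and 53.2 CPM at day 12. No 2 of the 3 groups overlapped. The log2 fold change against day 0 was -0.14 at day 1 (SE 0.034, adjusted p = 0.000565, edgeR) and -0.37 at day 12 (SE 0.034, adjusted p = 5.85e-10, edgeR), both below the 1.5-fold limit, and the day 12 value was 0.47 on the scale of the qPCR reference genes. From day 1 to day 12 it was -0.23 (SE 0.034, adjusted p = 3.36e-06, edgeR), or 0.11 with Hprt and Tbp alone as the scale.

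Elovl6, which converts palmitoyl-CoA to stearoyl-CoA and so feeds Scd1, dipped at day 1. Its level was 13.8, 15.2, 14.6, 13.4 and 14.7 CPM at day 0, 12.9, 12.2, 11.8, 10.2 and 11.5 CPM at day 1, and 14.1, 15.3, 13.8, 13.1 and 14.9 CPM at day 12. All day 1 libraries lay below all others, while days 0 and 12 covered the same range. It fell by 0.29 on the log2 scale at day 1 (SE 0.058, adjusted p = 8.71e-05, edgeR) and was 0.28 higher at day 12 than at day 1 (adjusted p = 0.000161, edgeR), or 1.07 with the qPCR reference genes and 0.62 with Hprt and Tbp alone as the scale, both past the 1.5-fold limit. Against day 0 the day 12 value was -0.0099 (95% interval -0.13 to 0.11, adjusted p = 0.881, edgeR). It was 0.18 with total counts, 0.25 with Hprt and Tbp alone, and 0.83 with the qPCR reference genes, past the 1.5-fold limit. The ratio of Elovl6 to Elovl5 within a library was 0.203 at day 0, 0.183 at day 1 and 0.260 at day 12 (geometric means). It was higher at day 12 than at day 0 by 0.36 on the log2 scale and than at day 1 by 0.51, without overlap (exact permutation p = 0.00794 for both, 0.0108 adjusted). Between days 1 and 0 the difference was -0.15 (exact permutation p = 0.119, 0.137 adjusted), and without day 1 replicate 1 it was -0.21 and passed the threshold.

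Elovl1, the elongase of the saturated and monounsaturated very long chains found in sphingolipids, moved little with TMM scaling. Its libraries lay between 57.8 and 63.6 CPM at day 0, 54.3 and 57.9 CPM at day 1 and 56.7 and 60.7 CPM at day 12, and the groups overlapped. The log2 fold change was -0.093 at day 1 (SE 0.032, adjusted p = 0.0118, edgeR). At day 12 it was -0.059 (95% interval -0.13 to 0.0063, adjusted p = 0.0927, edgeR), or 0.13 with total counts and 0.78 with the qPCR reference genes as the scale. Elovl3, an elongase known for its induction in cold-exposed brown fat, was close to undetected. Its counts were 0, 0, 1, 0 and 0 at day 0, 0, 0, 0, 7 and 0 at day 1, and 2, 0, 14, 0 and 5 at day 12. Only 3 of the 15 libraries had more than 3 counts, the highest of them 14 counts or 0.170 CPM, and Elovl3 did not pass the filter of the main test. Without that filter edgeR called it higher at day 12 than at day 0 (adjusted p = 0.0194), while the Wald test of DESeq2 did not (adjusted p = 0.173), and with 1 count in the whole day 0 group no fold is given.

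**Figure D2:**
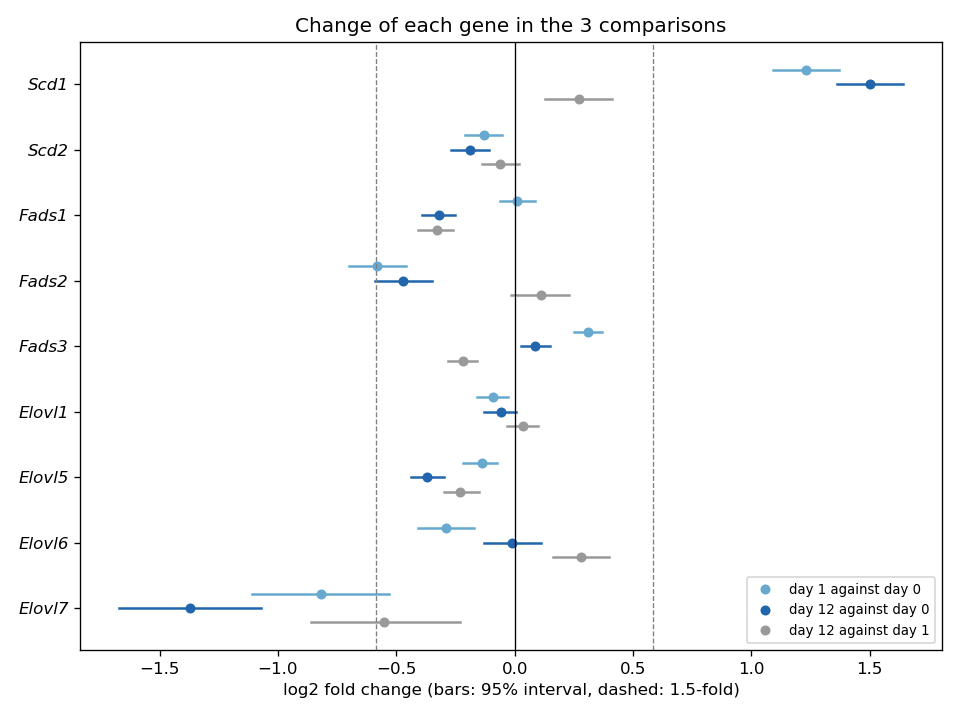
Log2 fold change (x axis) of the 9 tested genes (y axis) in 3 comparisons, with 95% intervals from the edgeR fit and dashed lines at 1.5-fold. Scd1 at 1.23 and 1.5 and Elovl7 at -0.82 and -1.37 lie past the lines against day 0, and Fads2 at -0.58 lies at the edge.

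At day 1, 1 of the 9 tested genes was called higher and 1 lower, a call being an adjusted p under 0.05 and a fold over 1.5. Over all 14293 genes tested, 7.71% were called higher and 13.4% lower. By adjusted p alone, 2 of the 9 were higher and 6 lower, against 35.3% and 36.2% of all genes. The median log2 fold change of the 9 was -0.13, against -0.00884 over all genes. At day 12 against day 0, again 1 was called higher and 1 lower, against 13% and 16.2% of all genes, and by adjusted p alone 2 were higher and 5 lower, against 39.2% and 37.4%. The median of the 9 was -0.19, against 0.0123 over all genes. Between days 12 and 1 none of the 9 was called by edgeR, although 6 had an adjusted p under 0.05, with 2 higher and 4 lower. Over all genes 10.6% were called higher and 8.53% lower in that comparison, and by adjusted p alone 34.3% were higher and 32.8% lower. A call of 1 gene in 9 lies near these shares of all genes in both directions, so the counts say nothing particular about the members. Both comparisons with day 0 share the same 5 control libraries.

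The scaling of the libraries bears on the day 12 values. Relative to TMM, the median log2 fold change of all genes at day 12 against day 0 moved up by 0.193 with total counts, by 0.839 with the qPCR reference genes Hprt, Tbp, Gapdh and B2m, and by 0.261 with Hprt and Tbp alone, a set chosen after the data were seen. Between days 12 and 1 these scales moved it up by 0.173, 0.79 and 0.335, and between days 1 and 0 by less than 0.1 in either direction. Among those reference genes B2m itself was at -2.12 (SE 0.0545, adjusted p = 1.6e-20) and Gapdh at -0.70 (SE 0.0420, adjusted p = 1.84e-13) at day 12 in the edgeR fit. Hprt and Tbp were lower as well, at -0.25 and -0.27 (adjusted p = 1.58e-07 and 9.79e-05, edgeR). The higher level of Scd1 at both days held on every one of these scales. The ratios within a library do not depend on the scaling.

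Compared per kb of exon, the order of the genes was the same at days 0, 1 and 12, and no 2 neighbours in it overlapped between libraries. Scd1 stood first with mean levels of 451, 1060 and 1277 CPM per kb at days 0, 1 and 12, and Scd2 second with 75.1, 68.6 and 65.9. Fads3 followed with 40.8, 50.4 and 43.3 CPM per kb, then Elovl1 with 22.3, 20.9 and 21.4, Elovl5 with 20.1, 18.1 and 15.5 and Fads1 with 15.1, 15.2 and 12.1. Below them came Fads2 with 5.01, 3.35 and 3.61 CPM per kb, Elovl6 with 2.23, 1.82 and 2.22, and Elovl7 with 0.753, 0.426 and 0.292. Elovl3 was last at every time. With the length of the longest transcript in place of the merged exons the order was also the same, but Elovl5 and Fads1 then overlapped at day 1, at 21.1 to 23.7 and 20.1 to 22.1 CPM per kb. Of the summed level per kb of all 10 genes, Scd1 made up 71.2% ± 2.05 before cooling, 85.5% ± 1.12 after 1 day and 88.6% ± 0.498 after 12 days (SD, n = 5), and the share of Scd2 went from 11.9% to 5.57% and 4.57%.

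**Figure D3:**
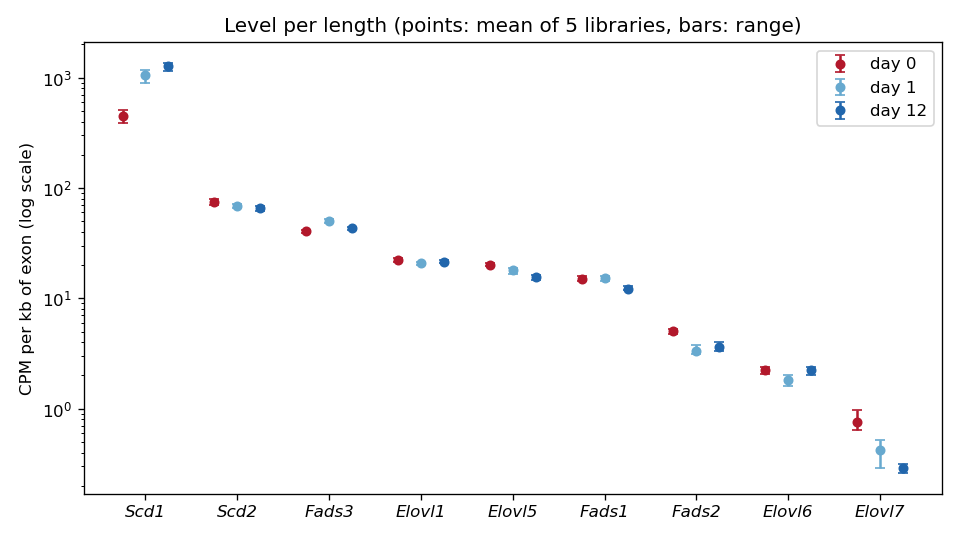
Level of 9 genes in CPM per kb of exon (y axis, log scale) at days 0, 1 and 12, with points for the mean of 5 libraries and bars for their range. The order from Scd1 (451 CPM per kb at day 0) to Elovl7 (0.753 CPM per kb) was the same at the 3 times, and the distance from Scd1 to the rest widened at 31°C.

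Relative to the enzymes before and beside it, Scd1 rose by a similar factor at both times. The ratio of Scd1 to Elovl6 counts in a library had geometric means of 153 at day 0, 442 at day 1 and 438 at day 12, and rose by 1.53 and 1.52 on the log2 scale (exact permutation p = 0.00794 for both, 0.0108 adjusted). Days 12 and 1 overlapped, with a difference of -0.011 (exact permutation p = 0.937), whose sign changed when single libraries were left out. The ratio of Scd1 to Fads2 was 133, 469 and 525, higher by 1.82 and 1.98 on the log2 scale (exact permutation p = 0.00794 for both, 0.0108 adjusted), with a difference of 0.16 between days 12 and 1 (exact permutation p = 0.238, 0.255 adjusted). Ratios of counts carry the lengths of both transcripts, so they are compared between days and not with each other.

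**Figure D4:**
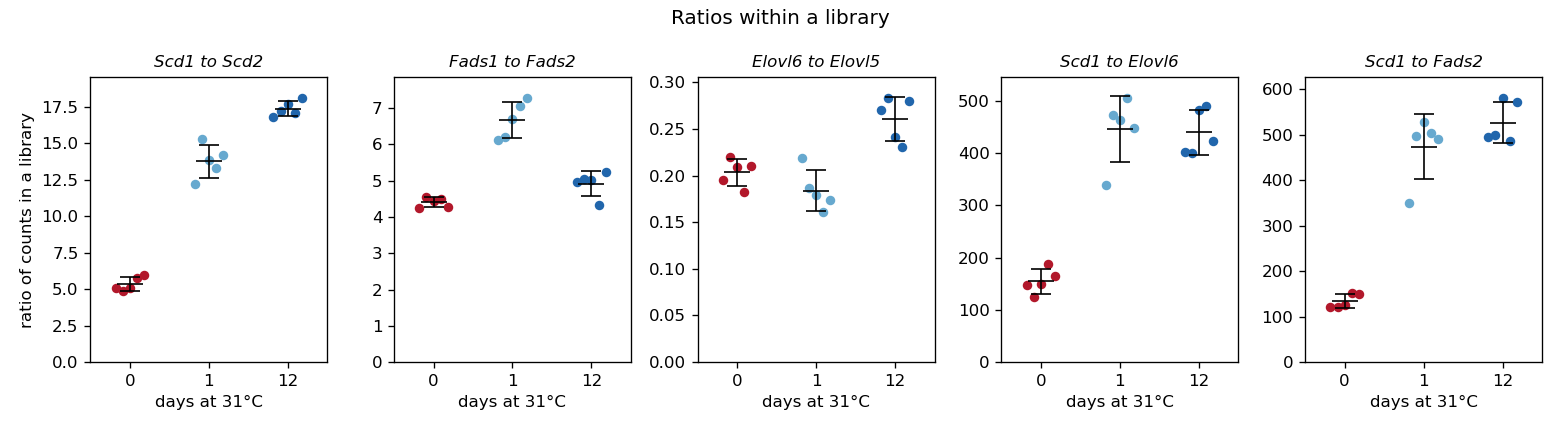
Ratio of counts of 5 gene pairs in each library (y axis, from 0) against days at 31°C (x axis), with points for libraries and bars for the mean ± SD of 5. Scd1 to Scd2 goes from 4.91 to 5.96 at day 0 up to 16.8 to 18.1 at day 12, and Fads1 to Fads2 is highest at day 1.

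Genes that work with the desaturases and elongases were described with 6 lists, which hold 53 genes, 48 of them tested. At day 1, 4 of the 48 were called higher and 4 lower, with a median log2 fold change of -0.049. At day 12 against day 0, 9 were called higher and 6 lower, with a median of -0.023, and between days 12 and 1, 6 were called higher and 3 lower, with a median of 0.038. Over all genes the shares called higher and lower were 7.71% and 13.4% at day 1, 13% and 16.2% at day 12 against day 0, and 10.6% and 8.53% between days 12 and 1, and the medians of all genes are given above. The values named below are from the edgeR fit.

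Of the other members of the 2 families, 4 of 7 were tested. Degs1, the desaturase that completes ceramide synthesis, was called higher at day 1, from 183 ± 9.40 to 298 ± 9.33 CPM (log2 fold change 0.70, SE 0.033, adjusted p = 2.41e-15, edgeR). Elovl4, which makes ultra-long chains, was called higher at day 12, from 0.821 ± 0.166 to 1.40 ± 0.315 CPM with overlapping libraries (0.78, SE 0.21, adjusted p = 0.00154, edgeR). Of the remaining steps of the elongation cycle, 0 of 6 tested genes were called against day 0, with medians of -0.071 at day 1 and 0.16 at day 12. Ptplad2, the older symbol of the hydroxyacyl-CoA dehydratase Hacd4, was called higher at day 12 than at day 1, from 10.4 ± 0.797 to 16.1 ± 0.574 CPM (0.63, SE 0.062, adjusted p = 2.83e-09, edgeR), a call lost without day 1 replicate 3.

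Desaturases draw electrons from cytochrome b5 and its reductases, and 5 of 6 such genes were tested. At day 1 none of the 5 was called, with a median of 0.14. Cyb5r3, the main NADH-cytochrome b5 reductase, was called higher at day 12, from 633 ± 6.68 to 981 ± 28.1 CPM (0.63, SE 0.026, adjusted p = 1.5e-16, edgeR). Cyb5b, the cytochrome b5 of the outer mitochondrial membrane, was called too, from 150.1 ± 4.72 to 226 ± 7.35 CPM (0.59, SE 0.030, adjusted p = 9.31e-15, edgeR), close to the fold limit, and lost the call without day 0 replicate 3 or day 12 replicate 1 or 5. Cyb5a and Cyb5r1 went the other way at day 12, at -0.3 and -0.42 (adjusted p = 5.92e-10 and 5.79e-11, edgeR), below the 1.5-fold limit. Cyb5r4 was at -0.044, the median of the 5 at day 12.

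Of 12 known regulators, 2 were called lower at day 1, and at day 12 2 were called higher and 3 lower. Nr1h3, which encodes the liver X receptor α, fell from 21.1 ± 1.38 to 13.1 ± 0.919 CPM at day 1 (-0.69, SE 0.055, adjusted p = 6.04e-11, edgeR) and was at 13.1 ± 0.808 CPM at day 12, although at 0.15 against day 0 with the qPCR reference genes as the scale. Ppara, a nuclear receptor that drives fatty acid oxidation, fell from 1.76 ± 0.212 to 0.564 ± 0.147 CPM at day 1 (-1.64, SE 0.20, adjusted p = 6.18e-08, edgeR) and was called higher again from day 1 to day 12, at 1.31 ± 0.323 CPM (1.21, SE 0.20, adjusted p = 1.05e-05, edgeR). Srebf2, the sterol regulatory element-binding protein best known for cholesterol synthesis, was higher at day 12, from 68.0 ± 3.22 to 103 ± 6.13 CPM (0.60, SE 0.037, adjusted p = 3.91e-13, edgeR), a call lost without day 0 replicate 2 or day 12 replicate 4. Insig1, which holds these proteins in the endoplasmic reticulum and is itself one of their targets, went from 32.2 ± 2.01 to 49.0 ± 1.39 CPM (0.61, SE 0.046, adjusted p = 1.35e-11, edgeR), lost without day 0 replicate 2. Mlx, the partner of the carbohydrate response element-binding protein, and Pparg, the master regulator of adipocytes, were called lower at day 12 at -0.72 and -0.59 (edgeR, adjusted p = 9.99e-15 and 5.27e-14), but were at 0.12 and 0.25 with the qPCR reference genes as the scale, and Pparg was not called without day 12 replicate 1 or 4. The median of the 12 was -0.26 at day 1 and -0.19 at day 12.

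Among 15 enzymes that supply or use acyl-CoA, 3 were called higher and 1 lower after 1 day, and 4 against 2 after 12 days. Agpat2, an acyltransferase of glycerolipid synthesis, rose at each step, from 21.4 ± 1.53 to 39.6 ± 2.04 and 66.3 ± 2.89 CPM (0.89 at day 1 and 1.63 at day 12, adjusted p = 2.08e-14 and 8.95e-20, edgeR). The diacylglycerol acyltransferases, which complete triacylglycerol, went apart at day 12. Dgat1 was called higher, from 51.3 ± 2.58 to 83.8 ± 2.5 CPM (0.71, SE 0.042, adjusted p = 1.31e-13, edgeR), and Dgat2 lower, from 306 ± 14.5 to 185 ± 7.96 CPM (-0.73, SE 0.034, adjusted p = 1.29e-15, edgeR), although at 0.12 with the qPCR reference genes as the scale. At day 1 Dgat1 was called at 0.61 (SE 0.042, adjusted p = 4.22e-12, edgeR), a call lost without day 1 replicate 5. Among the acyl-CoA synthetases, Acsl1 rose at day 12 from 134 ± 3.71 to 265 ± 15.1 CPM (0.98, SE 0.037, adjusted p = 1.85e-17, edgeR) and Acsl6 was called higher at both days from a low level of 0.609 ± 0.207 CPM, at 0.92 and 1.90 (adjusted p = 0.000213 and 2.42e-09, edgeR). Acsl4, the synthetase with a preference for arachidonate, was lower at day 12 than at day 1 (-0.61, SE 0.050, adjusted p = 1.07e-10, edgeR), but 0.18 higher with the qPCR reference genes as the scale, and was not called without day 1 replicate 3 or day 12 replicate 4. Acacb, the mitochondrial acetyl-CoA carboxylase, was called lower at day 1 (-0.73, SE 0.079, adjusted p = 1.42e-08, edgeR). Soat1, which esterifies cholesterol, was called lower at day 12 (-0.81, SE 0.038, adjusted p = 1.37e-15, edgeR), but was at 0.031 on the qPCR scale. The median of the 15 was 0.33 at day 1 and 0.15 at day 12.

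Of 6 genes for the shortening of very long polyunsaturated chains in peroxisomes, Abcd2 was called. This importer of very long chain acyl-CoA fell from 48.1 ± 2.2 CPM at day 0 to 29.7 ± 1.11 at day 1 and 17.0 ± 0.532 at day 12 (-0.70 and -1.5, adjusted p = 3.16e-14 and 1.53e-20, edgeR). The median of the 6 was -0.20 at day 1 and -0.38 at day 12.

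**Figure D5:**
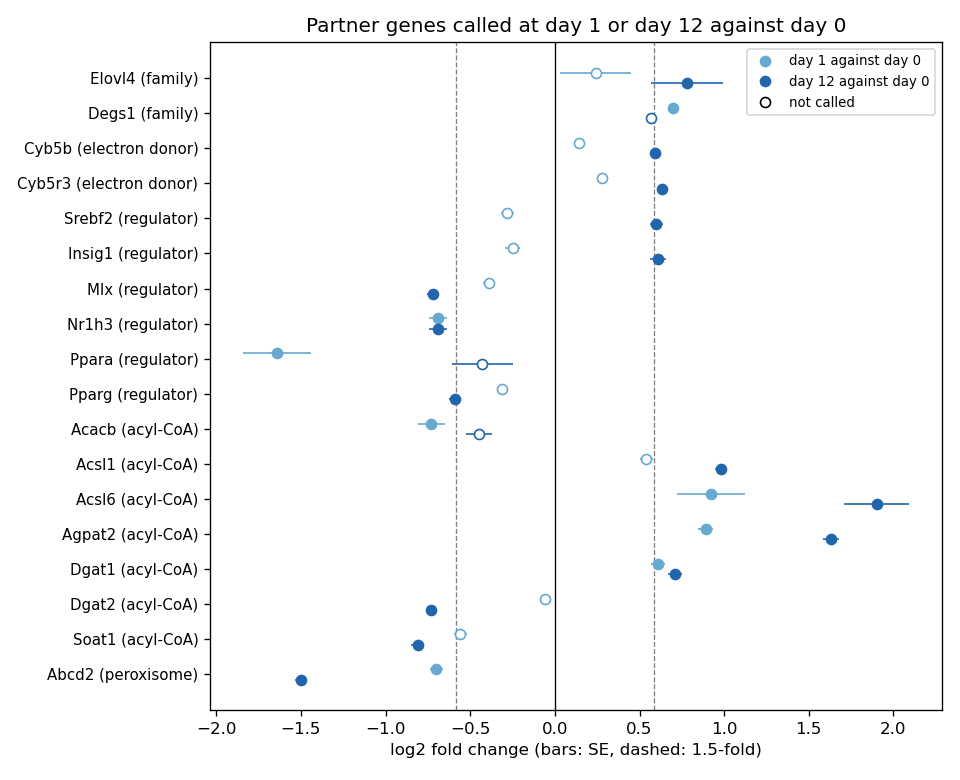
Log2 fold change (x axis) at days 1 and 12 against day 0 of the 18 partner genes (y axis) called in either comparison, with bars for the SE, open points where not called and dashed lines at 1.5-fold. Agpat2 and Acsl6 reach 1.63 and 1.90 at day 12, and Abcd2 goes to -1.5.

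The genes whose levels followed those of a member most closely were listed by Pearson's r of log2 CPM over the 15 libraries, among the 8925 genes that averaged 10 CPM or more. For Scd1 these were Ccdc122 (r = 0.994), Pias2 (0.990) and Ttc13 (0.990). For Elovl7 they were Tada3 (0.968), Atg12 (0.961) and Prps2 (0.957), and for Fads2 Rbms2 (0.972), Tle3 (0.967) and Apba3 (0.967). With 3 groups of 5 libraries, such an r mostly describes the steps between the groups.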

How the data were processed

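RNA of cultured adipocytes was sequenced in 15 libraries, 5 per group, which were placed in groups by their labels. Per the labels and the study's methods, the authors aligned reads to mm10 with TopHat2 2.0.13 and Bowtie2 2.2.1 and deposited raw counts per gene made with HTSeq. They also deposited regularized log2 values and their own DESeq2 fold changes and p-values, which were not used here. Genes were filtered with filterByExpr (minimum count 10), scaled by TMM and tested by quasi-likelihood in edgeR 4.0.16 (R 4.3.3), in a single fit of the 15 libraries without covariates. Calls needed a Benjamini-Hochberg adjusted p under 0.05 over 14293 genes and a fold over 1.5. Standard errors were the log2 fold change over the square root of F. The scripts were tested on simulated data. Ratios within a library were tested by exact two-sided permutation of 5 against 5 libraries.

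The members, partner lists, marker lists and tests were chosen with earlier results of these data known. All 10 members were named, and of the partner lists each gene called in at least 1 comparison, with older symbols matched where needed. The common dispersion was 0.00276, that is, libraries of a group varied by 5.25%. Alternatives tried were other scalings (DESeq2 size factors, total counts, qPCR reference genes), the DESeq2 1.42.0 Wald test, other filters, fits of 2 groups only, no fold limit, the library number series, a replicate block and leaving out each library. Scaling to Hprt and Tbp alone was chosen after seeing the data, because Gapdh and B2m fell at day 12. The planned qPCR scaling named 6 genes that the study used for qPCR, not its full sets, and 2 of these 6 (Rpl32 and Rpl13a) had no row in the table used here.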

Additional observations from a re-analysis of the deposited data

Results flagged for a closer look

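In 42 groups of 5 values that were checked, 3 held a library that stood apart from the others by Dixon's criterion for 5 values, for which chance gives about 1 in 20. Fads1 in day 12 replicate 2 was at 62.1 CPM, Elovl1 in day 1 replicate 2 was at 54.3 CPM, and the ratio of Scd1 to Fads2 in day 1 replicate 1 was 349.7.

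The change from day 0 differed between day 12 and day 1 for 6 of the 9 tested genes, by adjusted p alone. The test was the contrast of the groups at 31°C in the edgeR fit. Over all genes 34.3% were higher and 32.8% lower by the same criterion, so this count says nothing particular about the members. With the qPCR reference genes as the scale, Fads1, Fads3, Elovl5 and Elovl7 had the reverse sign, as given below. On the log2 scale Scd1 differed by 0.27, Fads1 by -0.33, Fads3 by -0.22, Elovl5 by -0.23, Elovl6 by 0.28 and Elovl7 by -0.55. Among the ratios within a library, Scd1 to Scd2 differed by 0.33, Fads1 to Fads2 by -0.44 and Elovl6 to Elovl5 by 0.51.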

How the results depend on the processing

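The count of members called was 2 at day 1 and 2 at day 12 against day 0, and 0 between days 12 and 1. With no fold limit it was 8, 7 and 6, which are the counts by adjusted p alone, with the shares of all genes given above. With the 11 libraries of the earlier series it was 1 at day 1 and 1 between days 12 and 1. With the qPCR reference genes it was 5 at day 12 against day 0 and 5 against day 1, all of them higher. On that scale 9713 of the 14293 genes were called higher and 643 lower against day 0, and 10196 and 255 against day 1. With Hprt and Tbp alone the count of members was 2 between days 12 and 1. With a mean of at least 10 CPM it was 1 at day 12, since that filter removes Elovl7. It was 3 at day 12 against day 0 with no filter on low counts, which adds Elovl3 as higher, and 3 at day 1 with Hprt and Tbp alone, which adds Fads2 as lower. Leaving out single libraries gave 0 to 1 between days 12 and 1, where Elovl7 was called without day 1 replicate 4 or 5.

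Several small changes reversed with the scale, by the construction of the scale, since it moves all genes alike. At day 12 against day 0, total counts, the qPCR reference genes, and Hprt and Tbp alone gave 0.0037, 0.65 and 0.071 for Scd2, 0.13, 0.78 and 0.20 for Elovl1, and 0.18, 0.83 and 0.25 for Elovl6. In the same order they gave 0.11, 0.73 and 0.28 for Scd2 between days 12 and 1. With the qPCR reference genes each of these passed the 1.5-fold limit. The qPCR reference genes alone reversed Fads1 (0.52), Fads2 (0.36) and Elovl5 (0.47), and of the partners Dgat2 and Mlx (0.12 each), Nr1h3 (0.15), Pparg (0.25) and Soat1 (0.031). Changes that instead passed the fold limit were Fads3 at day 12 against day 0 (0.93, qPCR reference genes) and, between days 12 and 1, Scd1 (1.05), Fads2 (0.9), Elovl1 (0.82) and Elovl6 (1.07) with the qPCR reference genes and Scd1 (0.61) and Elovl6 (0.62) with Hprt and Tbp alone. Between days 12 and 1 the qPCR reference genes gave 0.46 for Fads1, 0.57 for Fads3, 0.56 for Elovl5, 0.24 for Elovl7, 0.18 for Acsl4 and 0.12 for Dgat2, and Hprt and Tbp alone gave 0.0028 for Fads1, 0.12 for Fads3 and 0.11 for Elovl5. The share of all called genes that were lower at day 12 against day 0 was 55.6% with TMM, 35.9% with total counts, 6.21% with the qPCR reference genes and 29.8% with Hprt and Tbp alone.

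Fads1 at day 1, near 0, was -0.061 with Hprt and Tbp alone, -0.033 with a mean of at least 10 CPM, -0.017 in the earlier series, and from -0.0047 to 0.036 without single libraries. Elovl6 at day 12 went from -0.036 to 0.018 without single libraries. Of the ratios, Fads1 to Fads2 at day 12 against day 0 was 0.12 and not past the threshold in the earlier series and 0.13 to 0.20 without single libraries, Scd1 to Elovl6 between days 12 and 1 was 0.073 in the earlier series and -0.11 to 0.037 without single libraries, and Elovl6 to Elovl5 at day 1 was -0.21 to -0.10. The cause of these was not tested. Among the partner genes, calls and settings were compared under each setting other than leaving out libraries, and 313 comparisons kept the call, 26 lost it and 7 reversed.

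The replicate numbers did not meet the criterion for pairing, a correlation over 0.1 in every pair. Same-numbered libraries of different groups had correlations of -0.0255 to 0.0436 in their deviations from the group means, with a median of 0.0195 against -0.00179 for other pairs. In 17 of 30 comparisons a library was closest to its own number, against 6 if numbers meant nothing, a hint from the data and not from the design that same-numbered libraries share a little. With a replicate block 2, 2 and 0 members were called, and the block changed no call of a gene. For ratios the sign-flip permutation over 5 pairs cannot go below 0.0625. Depth limits Elovl3, with at most 14 counts in a library.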
